A study of Mus musculus with 2 samples.

Results

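Lysosomal sphingolipid breakdown was described through 9 genes, Galc, Psap, Asah1, Glb1, Hexa, Gm2a, Arsa, Smpd1 and Neu1, named for their known roles and found by symbol among the 27998 genes of the count tables. They were read in leukocytes of the brain, taken as CD45+ cells at postnatal day 21 from untreated twitcher (twi) mice, which are galc-/- and serve as a model of globoid cell leukodystrophy (Krabbe disease), and from WT littermates, which are galc+/+. Both genotypes were on the C57Bl/6 strain, and the twi mutation is carried in the germline by every cell of the animal. Cells of several animals were pooled, so that each genotype gave 1 single-cell library, and animals cannot be told apart within it. No difference between twi and WT therefore has a replicate check, and no test was made. Intervals in brackets are 95% intervals for counting error only, and genotype, pool, library and handling cannot be told apart.

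Sphingolipids reach the lysosome with membrane and myelin debris and are taken apart there stepwise by acid hydrolases, most of which depend on small activator proteins that present the lipid to the enzyme. Galc encodes galactosylceramidase, which removes galactose from the myelin lipid galactosylceramide and from psychosine, and its loss causes globoid cell leukodystrophy. Psap encodes prosaposin, the precursor of the saposins, and Gm2a encodes the activator that presents the ganglioside GM2 to β-hexosaminidase. Among the enzymes, Hexa encodes the α subunit of β-hexosaminidase, Glb1 acid β-galactosidase, Neu1 the lysosomal sialidase, Arsa arylsulfatase A, which cleaves sulfatide, Smpd1 acid sphingomyelinase, and Asah1 acid ceramidase, which cleaves the ceramide that the other steps leave. Microglia, the resident macrophages of the brain, and monocytes that enter it are the CD45+ cells best known for digesting such debris.

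The genes lie apart in the genome. On the GRCm38 build (mm10) with the GENCODE annotation, Psap spans chr10:60277627-60302597 on the plus strand and Gm2a spans chr11:55098115-55113029, also on the plus strand. Asah1 lies at chr8:41340197-41374773 and Galc at chr12:98202294-98259459, both on the minus strand. Hexa (chr9:59539540-59565109) and Glb1 (chr9:114401076-114474898) share a chromosome and the plus strand. Smpd1 (chr7:105554360-105558389) and Neu1 (chr17:34931253-34935953) are short genes on the plus strand, and Arsa (chr15:89472476-89477425) is on the minus strand. The annotated bounds of Galc, Glb1, Hexa and Arsa overlap those of another gene each (Gm47439, Tmppe, Tmem202 and C230037L18Rik).

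Promoter sequence was looked at because lysosomal genes are known to share the CLEAR element, a palindrome with the core CACGTG that is bound by Tfeb and its relatives. RefSeq start sites on GRCm38.p6 were given for 8 of the 9 members. In the 250 bases before the start, CACGTG was found for 2 members, Glb1 and Arsa, against 1854 of 27025 genes in all (6.86%). The full CLEAR palindrome was found for 0 members, against 73 genes (0.270%). A palindrome reads the same on both strands, and every CLEAR match also holds the core. The stretches that hold the match are shown because they are the only ones among the members, with the core in capitals, the Glb1 stretch from chr9:114401010-114401055 (plus strand) and the Arsa stretch from chr15:89477425-89477460 (minus strand):
Glb1: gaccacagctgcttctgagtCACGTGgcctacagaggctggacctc
Arsa: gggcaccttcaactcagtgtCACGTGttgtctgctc

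The core begins 48 bases before the Glb1 start and 16 bases before the Arsa start. Both genes gave few UMIs in these cells. The 100 bases before the start are shown for Psap (chr10:60277528-60277627, 71% G or C), Hexa (chr9:59539440-59539539, 66%) and Gm2a (chr11:55097885-55097984, 56%), all plus strand, because the levels of these members over the cell classes are described in most detail. Asah1 had no entry. None of the windows holds the core:
Psap: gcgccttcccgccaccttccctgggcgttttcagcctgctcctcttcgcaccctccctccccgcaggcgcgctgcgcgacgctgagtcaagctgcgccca
Hexa: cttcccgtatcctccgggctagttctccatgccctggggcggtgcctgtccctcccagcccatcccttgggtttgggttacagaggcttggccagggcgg
Gm2a: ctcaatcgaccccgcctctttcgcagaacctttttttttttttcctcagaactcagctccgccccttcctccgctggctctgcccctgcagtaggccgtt

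After removal of 7 WT and 13 twi barcodes with over 15% mitochondrial UMIs (unique molecular identifiers, 1 per captured transcript), 1271 WT cells with 3741477 UMIs and 1207 twi cells with 4791200 UMIs were analysed, at a median of 2222 and 3182 UMIs per cell. The libraries shared 0 barcodes. Sex-linked transcripts differed between the pools. Xist without any Y transcript marked 45.4% of twi cells and 0 of 1271 cells in the WT library, where the 95% interval reaches up to 0.290%. Cells were put in classes by counting markers, and class names below stand for cells whose markers resemble that type. The classes held 28 WT and 17 twi microglia, 39 and 63 monocytes, 243 and 68 neutrophils, 566 and 171 B cells, 99 and 402 CD8 T cells, 46 and 70 CD4 T cells, and 68 and 63 NK cells, and the other cells were T cells without a clear subtype or had no class. In the microglia class, C1qa was seen in 27 of 28 WT and 16 of 17 twi cells and P2ry12 in 26 of 28 and 13 of 17, and markers of border macrophages gave 0 UMIs in WT and 4 in twi, all from Mrc1. Doublets were not removed, and 23 of 28 WT and 10 of 17 twi microglia carried at least 2 markers of another class, as did 30 of 39 WT and 26 of 63 twi monocytes. Csf1r, a receptor that microglia also make, gave 93.8% and 84.8% of the monocyte-marker UMIs in microglia, and the neutrophil markers gave a further 522 UMIs in WT and 25 in twi microglia. The WT microglia also held 1470 UMIs of the neutrophil transcript S100a8, against 23 in twi. Oligodendrocyte markers were seen in 10.1% of all WT and 19.0% of all twi cells, and endothelial markers, among them Ly6c1, in 7.47% and 34.0%. Erythroid markers, which are hemoglobin transcripts, were seen in 94.5% and 89.1%. Whether these transcripts were free RNA or made by the cells that held them was not tested. At the ratio of S100a8 and S100a9 to each member in neutrophils, free neutrophil RNA would give 1.72% of the Psap UMIs of WT microglia. It would give 0.760% for Asah1, 1.18% for Hexa, 4.85% for Gm2a and 2.41% for Neu1 there, and 7.54% for Neu1 in WT monocytes. These are estimates and not a test, and the part of free RNA in other levels is given only where a value is stated.

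Levels are UMIs per 1000000 UMIs of the class (CPM). They count transcript 3′ ends and are not scaled to gene length, so a gene is compared with itself between classes and libraries. Galc was too sparse for levels and was left out of sums, which cover the other 8 members. The summed members reached their highest level in monocytes, at 5135 CPM in WT and 4534 CPM in twi, and in microglia, at 4290 CPM in WT and 4411 CPM in twi. B cells followed at 1030 and 1020 CPM. Neutrophils held 773 CPM in WT and 502 CPM in twi. CD4 T cells held 579 and 562 CPM, CD8 T cells 473 and 425 CPM, and NK cells 471 and 470 CPM. The WT order of monocytes, microglia, B cells and neutrophils was separated at each step by more than counting error, whereas the 3 lowest classes were not. In twi, monocytes and microglia did not differ by more than counting error, nor did neighbours among the 4 lowest classes.

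The microglia level of the 8 members summed was 4.16 times that of B cells in WT (3.72–4.66) and 4.33 times in twi (3.79–4.94). Against CD8 T cells the ratio was 9.07 in WT and 10.4 in twi. Against monocytes it was 0.835 in WT (0.745–0.935) and 0.973 in twi (0.876–1.08). This last ratio turned in WT under several settings. It was 1.31 without cells that carried markers of another class, 1.12 with classes set by marker UMIs and 1.41 when Psap was left out of the sum. The WT order of these classes thus held in 11 of 14 other settings and not in all.

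**Figure D1:**
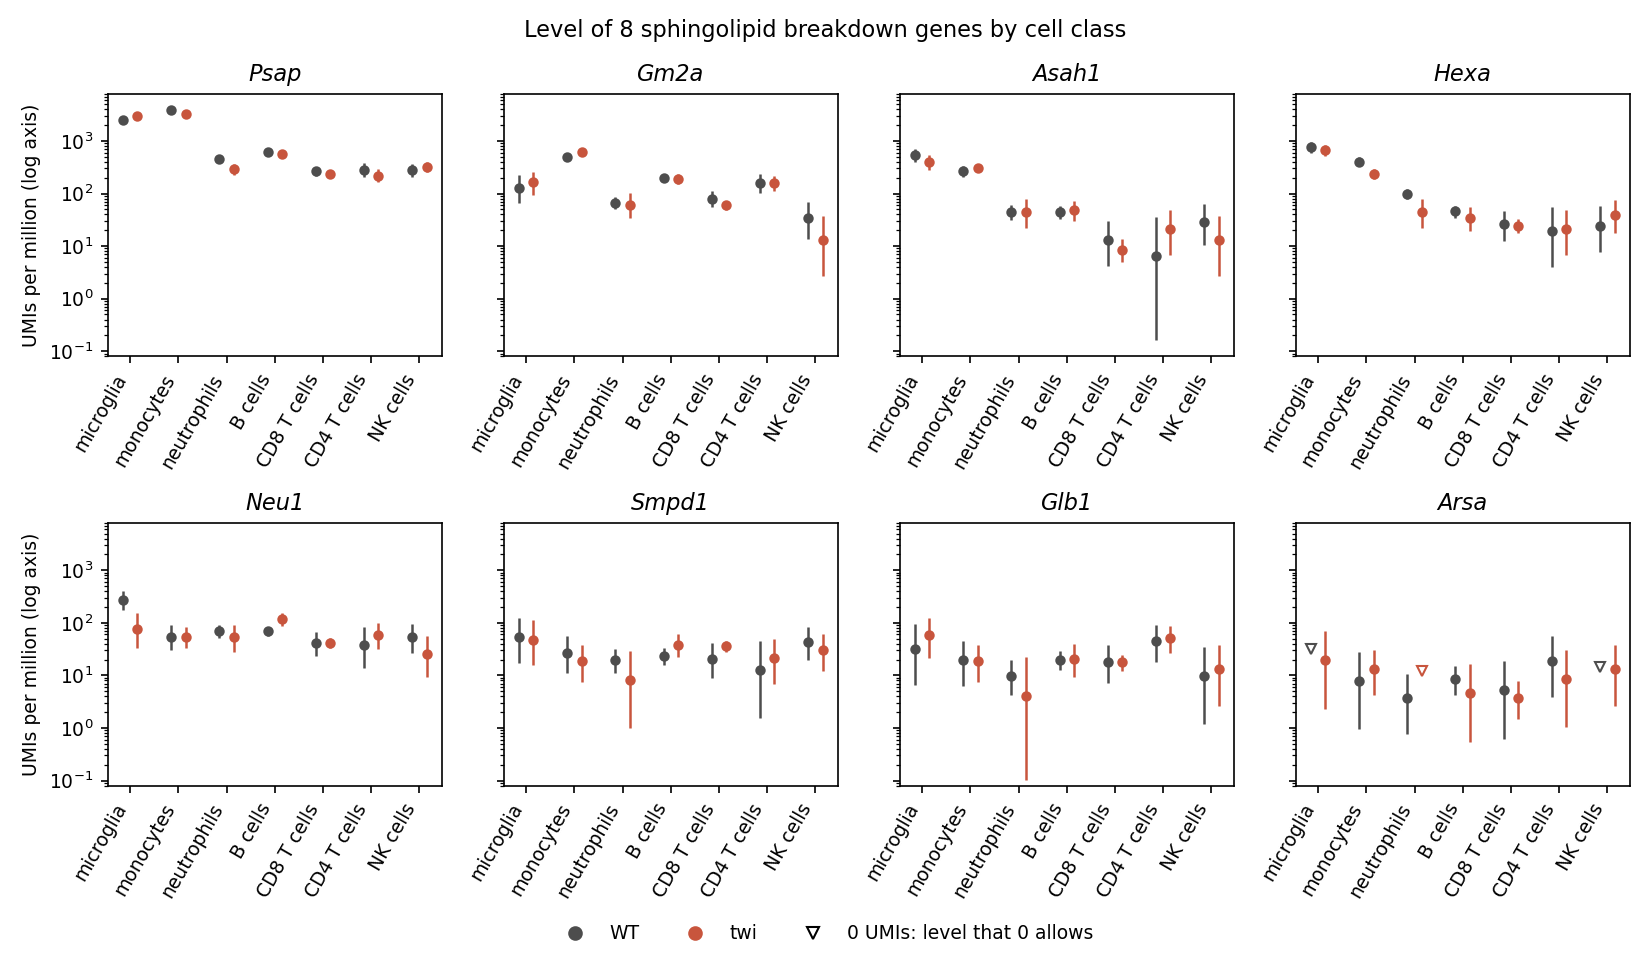
UMIs per 1000000 UMIs of the class (CPM, log axis) for 8 members in the 7 cell classes, WT and twi libraries side by side, with exact Poisson 95% bars. Open triangles mark classes with 0 UMIs and are drawn at the level that 3 UMIs would give. Psap, Asah1 and Hexa stand highest in microglia and monocytes in both libraries, Gm2a stands highest in monocytes, at 490 and 612 CPM, and Glb1, Arsa and Smpd1 lie low in every class.

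Psap, the precursor of saposins A to D, gave most of the UMIs of the 8 members, 63.7% in WT and 62.8% in twi. Its level was highest in monocytes, with 994 UMIs in WT (3864 CPM) and 1230 in twi (3275 CPM). Microglia held 233 UMIs in WT (2493 CPM) and 309 in twi (2976 CPM). B cells held 625 CPM in WT and 566 CPM in twi, neutrophils 461 and 288 CPM, NK cells 277 and 324 CPM, CD4 T cells 280 and 220 CPM, and CD8 T cells 269 and 232 CPM. Microglia and monocytes thus stood above every other class in both libraries, and the lymphoid classes other than B cells lay close together. Microglia stood at 0.645 times the monocyte level in WT (0.557–0.745) and 0.909 times in twi (0.800–1.03). Without cells carrying 2 markers of another class, which left 5 WT microglia and 9 WT monocytes, the WT ratio of Psap was 1.10. Over single cells the median was 25.5 Psap UMIs per 10000 UMIs in WT microglia and 21.1 in twi microglia, 35.5 and 29.1 in monocytes, and 3.42 and 2.40 in neutrophils.

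**Figure D2:**
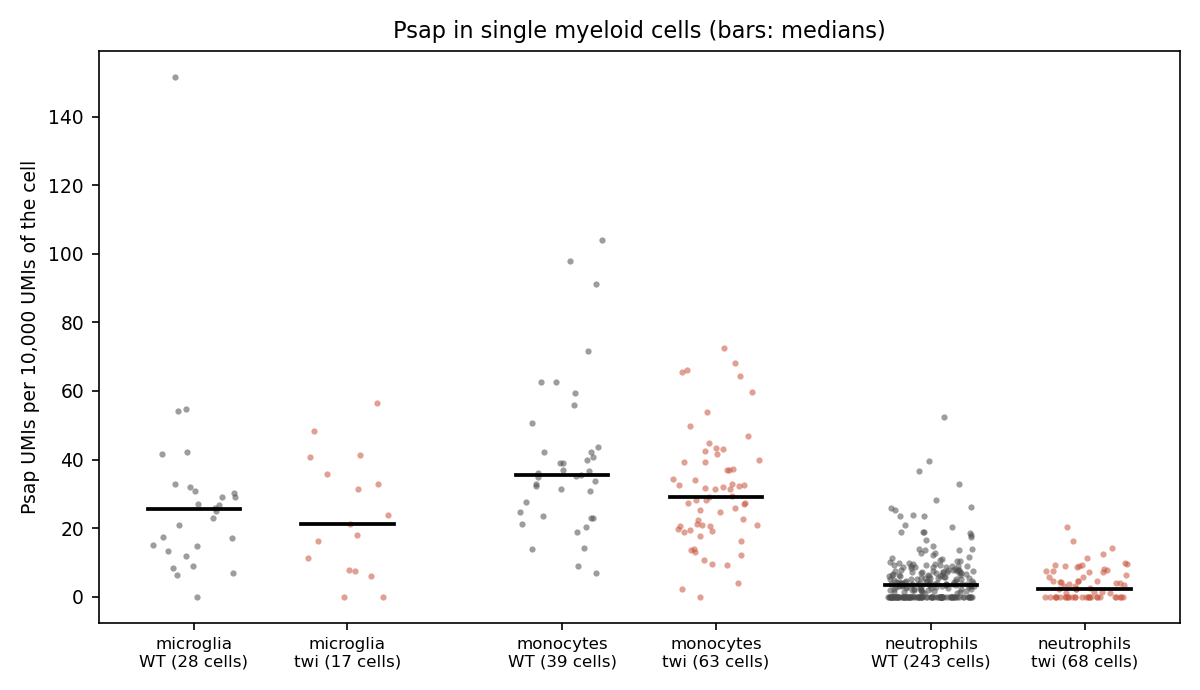
Psap UMIs per 10000 UMIs in single microglia, monocytes and neutrophils of the WT and twi libraries, each point a cell and each line the median of its class. The medians are 25.5 and 21.1 in microglia, 35.5 and 29.1 in monocytes and 3.42 and 2.40 in neutrophils, and the cells of the libraries overlap in every class.

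Gm2a, the GM2 activator, had another order of classes. Monocytes held 126 UMIs in WT (490 CPM) and 230 in twi (612 CPM). B cells came next, with 253 UMIs in WT (196 CPM) and 84 in twi (190 CPM), and CD4 T cells held 159 and 160 CPM. Microglia held only 12 UMIs in WT (128 CPM) and 17 in twi (164 CPM), which put them 0.262 times as high as monocytes in WT (0.132–0.474) and 0.267 times in twi (0.153–0.438). Over all settings tried the ratio of Gm2a ran from 0.133 to 0.494 in WT and from 0.188 to 0.437 in twi. CD8 T cells held 80.1 CPM in WT and 60.2 CPM in twi, neutrophils 66.8 and 60.8 CPM, and NK cells 34.0 and 12.9 CPM. The Gm2a level of CD4 T cells was 1.99 times that of CD8 T cells in WT (1.12–3.48) and 2.66 times in twi (1.79–3.88). A single twi CD4 T cell held 10 Gm2a UMIs, 26.3% of those of its class. B cells held 44.8% of the WT UMIs of Gm2a, where they were 44.5% of cells and held 34.5% of the UMIs of all genes. In twi, where B cells were 14.2% of cells, monocytes held the largest part, 37.7%.

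Asah1, acid ceramidase, was highest in microglia and monocytes. Microglia held 51 UMIs in WT (546 CPM) and 41 in twi (395 CPM), and monocytes held 69 (268 CPM) and 116 (309 CPM). Neutrophils and B cells held between 44.1 and 47.6 CPM in both libraries, and CD4 T, CD8 T and NK cells held between 6.37 and 29.1 CPM from 1 to 16 UMIs each. The microglia level of Asah1 was 2.03 times the monocyte level in WT (1.39–2.96) and 1.28 times in twi (0.873–1.84), an interval that includes 1. In twi it was 0.574 without cells carrying 2 markers of another class, from 6 microglial UMIs. At the ratio of C1q transcripts to Asah1 in microglia, free microglial RNA would give 2.93% of the Asah1 UMIs of WT CD8 T cells and 7.32% in WT CD4 T cells, which held 1 Asah1 UMI.

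Hexa, the α subunit of β-hexosaminidase, was highest in microglia in both libraries. Microglia held 72 UMIs in WT (770 CPM) and 70 in twi (674 CPM), monocytes held 104 (404 CPM) and 88 (234 CPM), and neutrophils held 79 (97.7 CPM) and 11 (44.6 CPM). All lymphoid classes lay between 19.1 and 45.7 CPM. The microglia level of Hexa was 1.91 times the monocyte level in WT (1.39–2.60) and 2.88 times in twi (2.07–3.98).

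Neu1, the lysosomal sialidase, was seen in every class in both libraries. WT microglia held 25 UMIs, in 17 of 28 cells (267 CPM), and stood above all other WT classes, which lay between 38.2 and 69.2 CPM. In twi, B cells held 52 UMIs (118 CPM) and microglia 8 UMIs, in 6 of 17 cells (77.1 CPM), and no neighbours in the order of classes differed by more than counting error. The comparison of neighbours does not cover classes further apart, such as B cells and CD8 T cells (42.1 CPM). The microglia level of Neu1 was 4.91 times the monocyte level in WT (2.46–10.2) and 1.45 times in twi (0.551–3.43). Monocytes themselves held nearly equal Neu1 levels of 54.4 CPM in WT and 53.3 CPM in twi.

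Smpd1, Glb1 and Arsa were low throughout. Smpd1, acid sphingomyelinase, was between 8.10 and 53.5 CPM over the classes of both libraries, and no neighbours in its order differed by more than counting error. It held 91 UMIs over all WT cells and 159 over all twi cells, and its level over all cells was 1.36 times as high in twi (1.05–1.79). Within every class the interval of its twi over WT ratio included 1. Glb1, acid β-galactosidase, held 67 and 96 UMIs in all and ran from 4.05 to 57.8 CPM over the classes. The Glb1 level of twi CD4 T cells was 2.88 times that of twi CD8 T cells (1.36–5.72), from 12 and 33 UMIs. Arsa, arylsulfatase A, held 23 and 24 UMIs in all. It gave 0 UMIs in WT microglia, which allows up to 32.1 CPM, and 2 UMIs in twi microglia, so that its level in microglia could not be placed at this depth.

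The transcripts were also counted by the cells that held them. Psap was found in 66.1% of WT cells (63.4–68.7) and 62.1% of twi cells (59.2–64.8). With each cell thinned to 1000 UMIs, which kept 1165 WT and 1187 twi cells, these shares were 40.6% and 31.2%. In monocytes Psap was found in 39 of 39 WT and 62 of 63 twi cells, and in microglia in 27 of 28 and 15 of 17. Hexa was found in 25 of 28 WT and 13 of 17 twi microglia, and in 69.2% of WT and 50.8% of twi monocytes, or 28.2% and 15.9% after thinning. Asah1 was found in 21 of 28 WT and 11 of 17 twi microglia and in 71.8% and 69.8% of monocytes, but in only 5.05% and 3.73% of CD8 T cells. Gm2a was found in 35 of 39 WT and 54 of 63 twi monocytes, in 34.6% and 37.4% of B cells, and in 8 of 28 and 9 of 17 microglia. Nearly all monocytes and microglia thus held a Psap UMI, whereas most WT microglia showed no Gm2a at this depth.

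Galc is given as counts only. The WT library held 4 UMIs in 4 cells and the twi library 8 UMIs in 8 cells. In WT they fell in 1 monocyte, 1 neutrophil and 2 B cells. In twi they fell in 1 neutrophil, 1 B cell, 2 CD8 T cells and 4 cells that were other T cells or had no class. Both microglia classes held 0 Galc UMIs. Counts per gene do not show the sequence of the mutation, and with so few UMIs the genotype labels could not be checked from Galc.

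**Figure D3:**
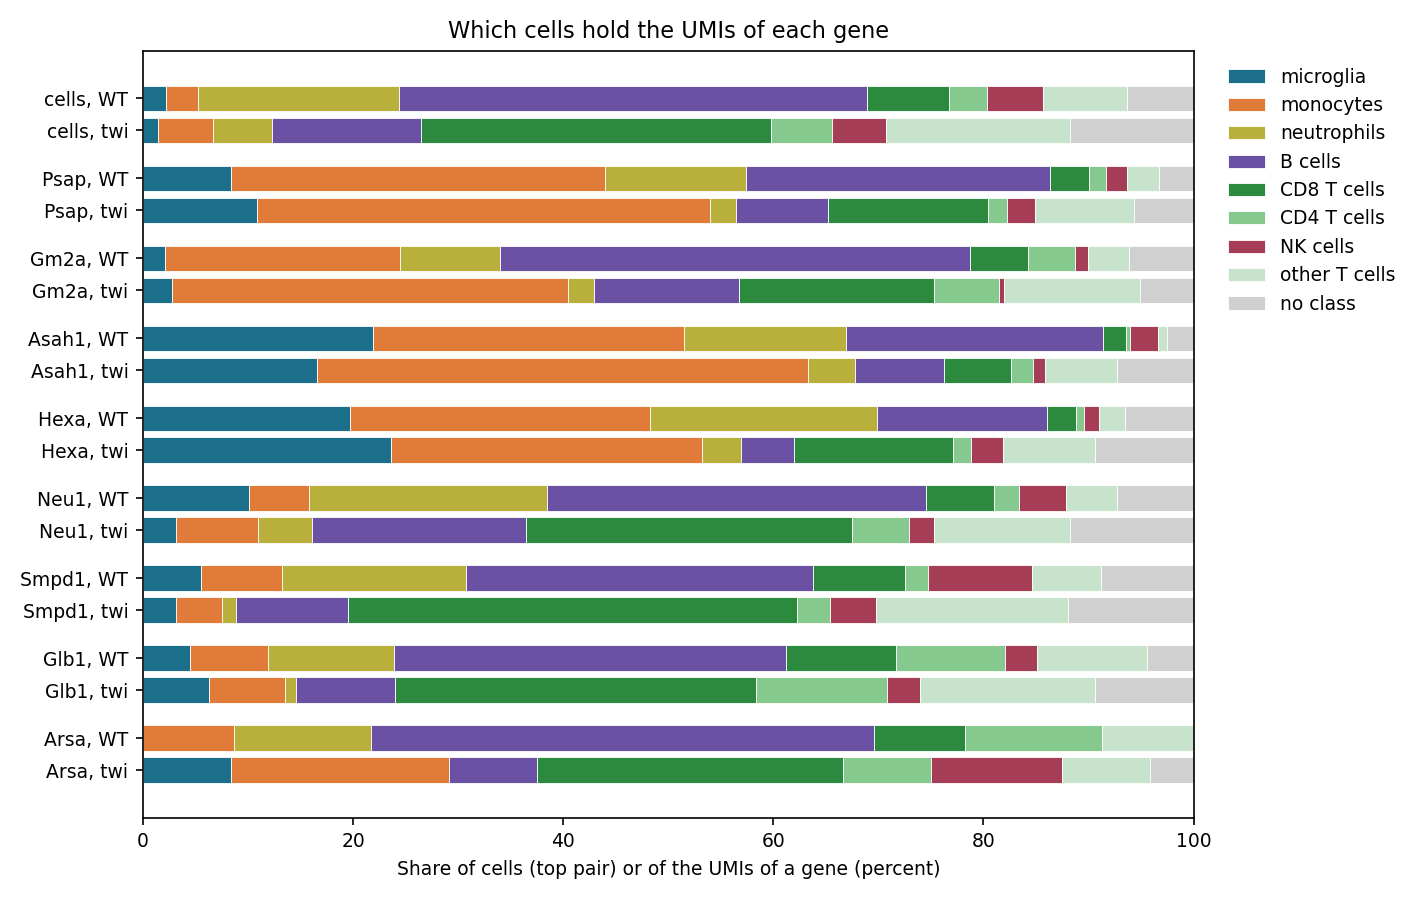
Share of the cells and of the UMIs of members that each class gave in the WT and twi libraries, in percent, stacked by class. Monocytes were 3.07% of WT and 5.22% of twi cells but held 30.2% and 37.5% of the UMIs of the 8 members summed. Of the UMIs of all genes they held 6.88% and 7.84%.

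Monocytes made up 3.07% of WT and 5.22% of twi cells and held 30.2% and 37.5% of the UMIs of the 8 members. Of the UMIs of all genes they held 6.88% and 7.84%. For Psap the monocyte share was 35.7% in WT and 43.1% in twi. Set against all other cells of the same library, with at least 20 UMIs needed over both sides, 5 of the 8 members tested were at least 2-fold higher in WT microglia (Psap, Asah1, Hexa, Smpd1 and Neu1), where 19.8% of all genes were. In twi microglia 5 of 8 were (Psap, Asah1, Glb1, Hexa and Arsa), where 19.9% of all genes were. Monocytes gave 4 of 8 members in WT (Psap, Asah1, Hexa and Gm2a) against 12.2% of all genes, and 5 of 8 in twi, with Arsa added, against 12.1%. Smpd1 rested on 5 UMIs in WT microglia, Arsa and Glb1 on 2 and 6 in twi microglia, and Arsa on 5 in twi monocytes. Between microglia and monocytes of WT, 2 of 5 members were at least 2-fold higher in microglia (Asah1 and Neu1), against 16.4% of all genes, and 1 was at least 2-fold lower (Gm2a), against 26.6%. In twi 1 of 5 was higher (Hexa), against 14.5%, and 1 was lower (Gm2a), against 19.8%.

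The question the study put to these cells was how brain leukocytes of twi mice differ from those of WT mice. Over all cells the 8 members summed gave 1170 CPM in WT and 948 CPM in twi, a twi over WT ratio of 0.810 (0.777–0.845). Psap stood at 0.799 (0.758–0.843), with 745 CPM in WT and 596 in twi, Hexa at 0.635, with 97.6 and 62.0 CPM, Neu1 at 0.806, with 66.0 and 53.2 CPM, Gm2a at 0.843, with 151 and 127 CPM, and Asah1 at 0.831, with 62.3 and 51.8 CPM. Smpd1 went the other way, at 1.36 (1.05–1.79). Glb1 stood at 1.12 (0.811–1.55) and Arsa at 0.815 (0.440–1.51), and both intervals include 1. At the 1.5-fold mark, 0 of 8 members were higher in twi over all cells, against 11.5% of 10657 genes, and 1 of 8 (Hexa) was lower, against 15.9%. The class makeup of the libraries differed, with B cells at 44.5% of WT and 14.2% of twi cells and CD8 T cells at 7.79% and 33.3%. With the class makeup of WT applied to the twi levels, the ratio of the sum was 0.907, that of Gm2a was 0.997, that of Asah1 1.02 and that of Neu1 1.11, whereas that of Hexa was 0.677. Counted as UMIs per cell, without correction for the deeper twi library, the summed ratio was 1.09.

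Within classes, 56 pairs of member and class could be set against each other, and the interval of the twi over WT ratio lay above 1 for 3, below 1 for 5 and included 1 for 48. The share of all genes under this interval rule was not taken, so the counts have no background to be read against. Some pairs held very few UMIs, such as Arsa in microglia with 0 and 2, and an interval that includes 1 says little there. Intervals that miss 1 at this number of pairs were not corrected, and they do not cover the difference between animals.

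**Figure D4:**
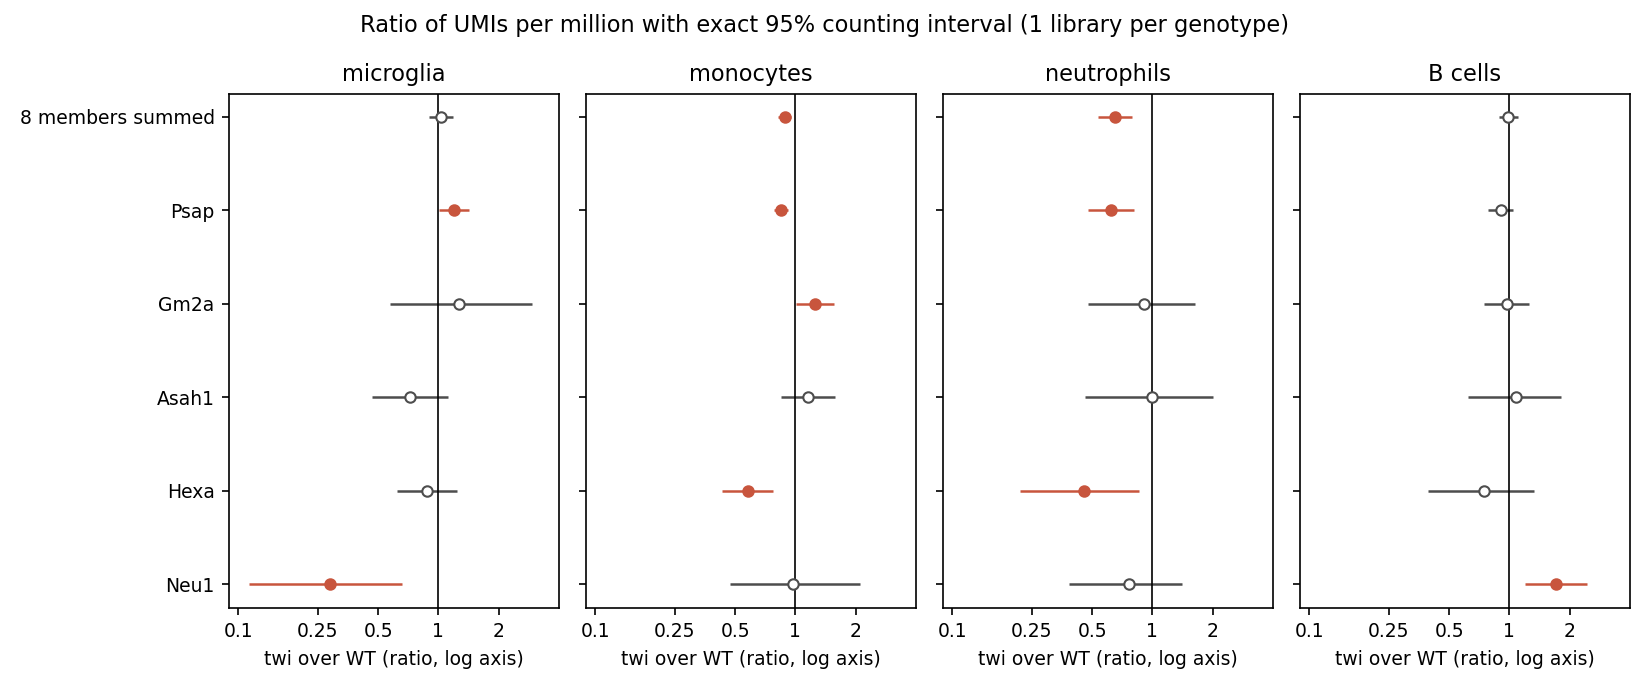
Twi over WT ratio of CPM (log axis) in microglia, monocytes, neutrophils and B cells for the 8 members summed, Psap, Gm2a, Asah1, Hexa and Neu1, with exact 95% counting intervals; filled red points are those whose interval misses 1. Hexa lies below 1 in monocytes (0.580), Neu1 below 1 in microglia (0.288) and above 1 in B cells (1.71), and the sum lies near 1 in microglia and B cells.

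In microglia the 8 members summed differed little, at 1.03 (0.897–1.18), while single members went apart. Psap was higher in twi at 1.19 (1.00–1.42), though its median over single cells was lower, and without cells carrying 2 markers of another class the ratio was 0.855. Neu1 was lower, at 0.288 (0.112–0.659), from 25 and 8 UMIs, and was below 1 in all 12 other settings, from 0.149 to 0.633, with an interval that missed 1 in 9 of them. Asah1 (0.724, 0.468–1.11) and Hexa (0.875, 0.621–1.23) had intervals that include 1. Of the 5 members with 20 UMIs, 0 were at least 1.5-fold higher, against 26.5% of 1574 genes, and 1 (Neu1) was at least 1.5-fold lower, against 22.9%. The median ratio of the 5 members was 0.875, against 1.06 over all genes tested. P2ry12, a marker of homeostatic microglia, went from 3916 CPM in WT to 867 CPM in twi in the same cells, and its bearing on the members was not tested.

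In monocytes Hexa was lower in twi, at 0.580 (0.431–0.777), and it was below 1 in all 13 other settings, from 0.401 to 0.670, with an interval that missed 1 in 12 of them. Psap was lower at 0.848 (0.779–0.922) and Gm2a higher at 1.25 (1.00–1.57). Both turned under another setting: the Psap ratio was 1.12 with classes set by marker UMIs, and the Gm2a ratio 0.867 with each cell thinned to 1000 UMIs. The sum stood at 0.883 (0.821–0.950), and at 1.13 with classes set by marker UMIs. Of 5 members tested, 0 were at least 1.5-fold higher, against 12.3% of 3933 genes, and 1 (Hexa) was lower, against 14.7%. The WT monocytes held 4124 UMIs of the neutrophil transcripts S100a8 and S100a9, 3835 of them in 1 cell, against 137 in twi. Without the cells over 50 UMIs of these transcripts, a setting chosen after seeing the data, the ratio was 0.849 for the sum, 0.813 for Psap, 0.595 for Hexa and 1.16 (0.926–1.45) for Gm2a. The monocytes differed in other transcripts too. Apoe went from 1026 to 3006 CPM and Chil3 from 1081 to 2889 CPM, and UMIs of the T list numbered 3 and 96. Dendritic markers were seen in 5.13% of WT and 15.9% of twi monocytes, which is 2 and 10 cells with 3 and 13 UMIs. Cd209a, which is outside that list, was seen in 4 WT and 5 twi monocytes and went from 299 to 149 CPM. The part of these transcripts in the ratios was not tested.

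In neutrophils the sum stood at 0.650 (0.532–0.790), with Psap at 0.624 (0.477–0.806) and Hexa at 0.456 (0.219–0.862). A single WT cell with 14883 UMIs and 2 monocyte markers held 78 of the 373 Psap UMIs. With each cell thinned to 1000 UMIs the summed ratio was 1.01 and that of Psap 0.990, and with a lead of 2 markers asked for they were 0.888 and 0.890. Of 5 members, 0 were at least 1.5-fold higher, against 6.32% of 3780 genes, and 2 (Psap and Hexa) were lower, against 36.5%, so that lower values were common over all genes in this class.

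In B cells the sum stood at 0.990 (0.888–1.10), an interval that includes 1. Neu1 was higher in twi, at 1.71 (1.19–2.44), with 68.9 CPM in WT and 118 CPM in twi. At least 1 Neu1 UMI was found in 14.5% of B cells in WT and in 22.8% in twi. The B cells of the libraries also differed in Rag1, a gene of B cell precursors, seen in 18.7% of WT and 7.02% of twi cells. H2-Aa, a class II gene of more mature cells, was seen in 39.9% and 53.8%. Other genes of precursors went the other way from Rag1, Igll1 from 3.36% to 5.26% and Vpreb1 from 4.06% to 5.26% of cells. The bearing of these differences on Neu1 was not tested. The Neu1 ratio was above 1 in all 12 other settings, from 1.12 in cells with a Y transcript and no Xist to 1.93 counted per cell, and the interval missed 1 in 10 of them. Smpd1 stood at 1.66 (0.858–3.11), an interval that includes 1. Of 7 members, 2 (Smpd1 and Neu1) were at least 1.5-fold higher, against 7.66% of 7242 genes, and 0 were lower, against 13.7%.

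In CD8 T cells the sum stood at 0.898 (0.764–1.06). Of 7 members, 1 (Smpd1, at 1.75, 0.841–4.22) was at least 1.5-fold higher, against 23.3% of 7352 genes, and 1 (Asah1, from 5 and 16 UMIs) was lower, against 9.05%. In CD4 T cells the sum stood at 0.969 (0.737–1.28), and of 3 members 1 (Neu1, from 6 and 14 UMIs) was higher, against 14.8% of 2612 genes, and 0 were lower, against 12.5%. In NK cells the sum stood at 0.999 (0.753–1.33), and Psap, the one member with 20 UMIs, was past the mark in neither direction, where 11.4% of 3068 genes were higher and 14.4% lower.

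A further list held 12 genes, some of the pathway and others partners of it. Of these, 4 could be compared in microglia, where 1 (Npc2) was at least 1.5-fold higher, against 26.5% of all genes, and 0 were lower, against 22.9%. Npc2, which carries cholesterol out of the lysosome, went from 55 to 118 UMIs, a ratio of 1.93 (1.39–2.71). In monocytes 2 of 8 were higher (Ctsa and Gpr65), against 12.3%, and 0 lower, against 14.7%. There Ctsa, the protective protein that holds Neu1 and β-galactosidase in a complex, stood at 1.59 (1.18–2.15). Over all cells Gpr65, a proton-sensing receptor that also responds to psychosine, went from 104 to 288 UMIs, a twi over WT ratio of 2.16 (1.72–2.73). Within classes the ratio of Gpr65 was 1.29 in CD8 T cells (0.783–2.26), 1.23 in neutrophils and 1.61 in B cells, and each interval includes 1. The same held for monocytes (1.67), NK cells (1.78) and microglia (2.25). In other T cells the interval lay above 1, at 3.35 (1.44–9.51), from 6 and 55 UMIs. CD4 T cells went from 0 to 9 Gpr65 UMIs, with a lower bound of 1.31.

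Of 10 further lysosome genes outside sphingolipid breakdown, 8 could be compared in microglia and 5 were at least 1.5-fold higher in twi (Lamp2, Ctsb, Ctsd, Ctsz and Grn), against 26.5% of all genes. The median ratio was 1.55, against 0.875 for the 5 members and 1.06 over all genes. The other settings were tried for the members only, so how far this contrast depends on the class rule was not tested. The interval of Lamp2 includes 1 (1.52, 0.942–2.497). Ctsb, a lysosomal protease, went from 188 to 502 UMIs, a ratio of 2.40 (2.03–2.86), and Ctsd, another, from 771 to 1348, a ratio of 1.57 (1.44–1.72). Grn, the progranulin gene, stood at 2.41 (1.92–3.04), while Lamp1, a membrane protein of the lysosome, stood at 1.12 (0.846–1.48). In monocytes 0 of 8 were higher, against 12.3% of all genes, and 1 (Atp6v1a) lower, against 14.7%. For CD8 T cells 2 of 8 were higher (Ctsd and Ctsz), against 23.3% of all genes, and 0 lower, against 9.05%. For CD4 T cells 0 of 5 were higher, against 14.8%, and 0 lower, against 12.5%. Summed, the 10 genes stood at 1.65 in microglia (1.55–1.75), 1.44 in CD8 T cells (1.30–1.59) and 1.24 in CD4 T cells (1.04–1.47). Ctsd and Laptm5 held 885 and 1481 of the 3064 UMIs of the sum in twi CD8 T cells. The sum was lower in neutrophils, at 0.854 (0.758–0.961), and its intervals in monocytes, B cells and NK cells include 1. Of the 4 regulators Tfeb, Tfe3, Mitf and Mcoln1, none had 20 UMIs in microglia, so they were not compared there.

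**Figure D5:**
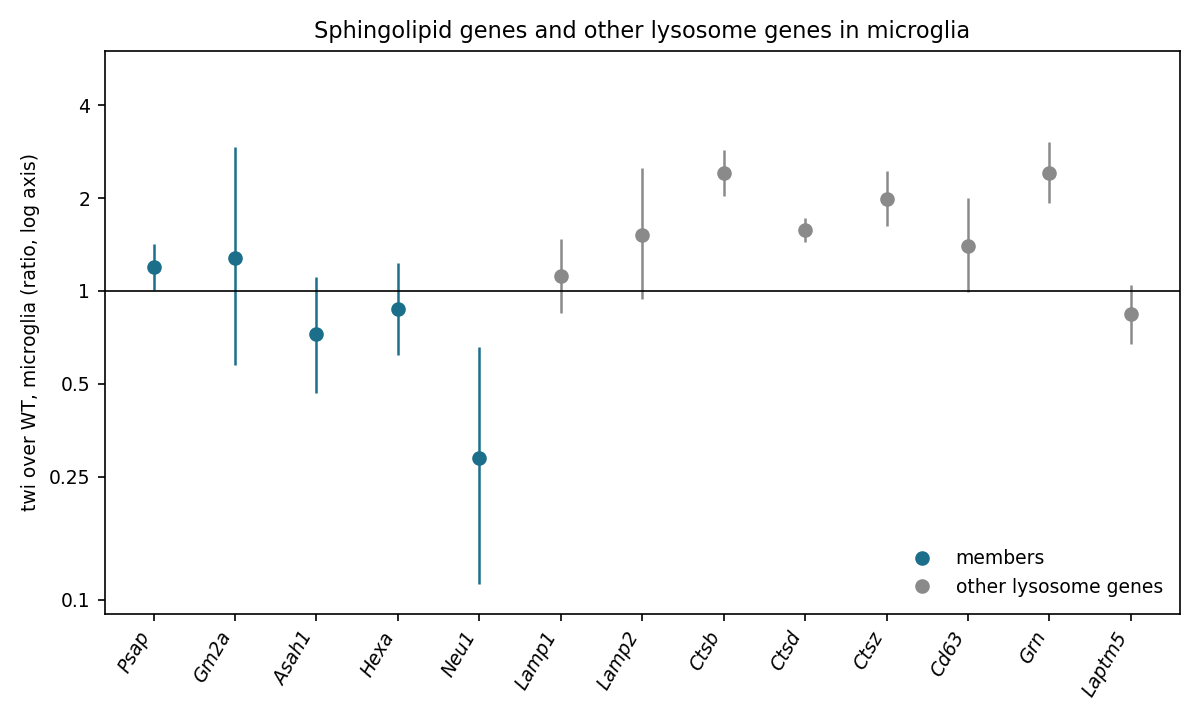
Twi over WT ratio of CPM in microglia (log axis) for the 5 members with 20 UMIs and 8 other lysosome genes, with exact 95% counting intervals. Ctsb (2.40) and Grn (2.41) stand highest and Neu1 (0.288) lowest.

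The genes whose level followed the 8 members summed most closely over the 7 classes of both libraries were, by Pearson correlation of log2(CPM + 10) over these 14 points, Lamp1 (0.981), Apoe (0.979), Capza2 (0.953), Cd68 (0.941) and Man2b1 (0.934), out of 1368 genes that averaged 100 CPM or more. The points share libraries and class markers, and the values are a description. Among the members themselves, each of which is part of the sum, the correlation was 0.992 for Psap, 0.955 for Asah1 and 0.932 for Hexa, and 0.725 for Gm2a, 0.527 for Neu1, 0.363 for Glb1, 0.346 for Smpd1 and 0.238 for Arsa. Psap gave most of the sum, so its own value was nearly fixed and the others mainly measure likeness to the Psap order of classes. Asah1 and Hexa lay close to that order, whereas Gm2a and Neu1 did so less closely and the others were sparse.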

How the data were processed

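CD45+ cells of pooled p21 brains were sequenced with the 10x Genomics 3′ v2 kit, in 1 WT and 1 twi library. The deposited values are raw UMI counts per gene and barcode, made by the authors with Cell Ranger 2.1.1 on mm10 per the submitters' notes. From these counts, barcodes with over 15% mitochondrial UMIs were left out. Each cell took the class with the most of 8 markers (at least 2, and at least 1 more than any other list). Of the T markers 5 could be used. No doublet caller was run. UMIs were summed per class and given per 1000000 UMIs (CPM). Poisson intervals were used for levels, conditional binomial intervals for ratios and Clopper-Pearson intervals for shares (all exact, 95%, scipy 1.17.1, numpy 2.4.6). These cover counting error only, and PCR copies are collapsed by UMI. In Poisson counts simulated for monocytes (1934 genes), 96% of the intervals of 200 altered genes covered the fold put in. This checked the calculation only, because the simulated counts had no spread between cells or animals. No test was made because each genotype had 1 library, and genes were called past a fold of 1.5 between libraries or 2 between classes, from 20 UMIs over both sides. The members and lists were chosen with earlier results of these data known, and so were the genes named. These were all members, and lists of 12 pathway genes and partners, 10 lysosome genes and 4 regulators. Further genes of the pathway are not reported here. The settings tried were other class rules, thinning to 1000 UMIs per cell, UMIs per cell, no mitochondrial or ribosomal genes, cells of 1 sex, and sums without Psap. Figures were drawn with matplotlib 3.10.9.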

Additional observations from a re-analysis of the deposited data

Results flagged for a closer look

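Psap went in opposite directions in twi over WT between classes, at 1.19 in microglia, 0.848 in monocytes and 0.624 in neutrophils. The difference between classes was not tested, since each genotype gave 1 library, and the microglia value was 0.855 without cells carrying 2 markers of another class. Neu1 likewise went apart, at 1.71 in B cells and 0.288 in microglia, and this difference was not tested either. The 7 WT barcodes left out for mitochondrial UMIs held 8 UMIs of the 8 members, and the 13 twi barcodes left out held 19.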

How the results depend on the processing

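No paired analysis was possible because each genotype gave 1 library and no result comes from a test, and leaving out a replicate was not possible for the same reason. For the twi over WT ratio of the 8 members summed, UMIs per cell in place of CPM gave 1.09 over all cells, 1.88 in microglia, 0.798 in monocytes, 1.12 in B cells and 1.07 in CD8 T cells. Without mitochondrial and ribosomal genes it was 0.902 over all cells. In cells with a Y transcript and no Xist it was 0.923 over all cells, 1.496 in microglia and 0.845 in B cells. Thinning to 1000 UMIs gave 0.824 in microglia, 0.748 in monocytes and 1.01 in neutrophils. A lead of at least 2 markers gave 0.797 in monocytes and 0.888 in neutrophils, and classes by marker UMIs 1.13 and 0.934. Microglia without cells carrying 2 markers of another class gave 0.759. Without Psap the sum gave 0.798 in microglia, 0.991 in monocytes and 1.12 in B cells.

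For microglia over other classes in WT, leaving out cells with 2 markers of another class gave 1.31 against monocytes, 10.9 against neutrophils, 6.29 against B, 13.6 against CD8 T, 13.9 against CD4 T and 15.4 against NK cells. Classes by marker UMIs gave 1.12 against monocytes and 6.92 against neutrophils. UMIs per cell gave 0.423 against monocytes and 6.09 against B cells. Without Psap the ratio to monocytes was 1.41. Against neutrophils a lead of 2 markers gave 7.51, cells with a Y transcript and no Xist 4.20, and leaving out the top cell 6.47. Without mitochondrial and ribosomal genes the ratio was 3.63 against B, 5.96 against CD8 T and 5.35 against CD4 T cells. In twi the ratio without cells carrying 2 markers of another class was 1.14 against monocytes, 5.03 against B, 11.7 against CD8 T and 9.70 against CD4 T cells. Thinning gave 5.09 against neutrophils, 3.45 against B, 8.996 against CD8 T and 6.98 against NK cells. UMIs per cell gave 14.8 against neutrophils, 10.2 against B, 13.6 against CD8 T, 14.2 against CD4 T and 15.6 against NK cells. Cells with a Y transcript and no Xist gave 1.40 against monocytes, 7.07 against B, 14.7 against CD8 T, 10.02 against CD4 T and 11.8 against NK cells. Without Psap it was 1.14 against monocytes, 6.68 against neutrophils, 3.17 against B, 7.46 against CD8 T and 4.20 against CD4 T cells, and without mitochondrial and ribosomal genes 8.04 against CD8 T and 6.30 against CD4 T cells.

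Among single members whose interval missed 1, the ratio crossed 1 in 10 cases. With UMIs per cell the ratio over all cells was 1.08 for Psap, 1.12 for Asah1, 1.14 for Gm2a and 1.09 for Neu1, and Hexa in WT microglia over monocytes was 0.964. Gm2a was 1.07 over all cells with a Y transcript and no Xist, and 0.867 in monocytes after thinning. Psap was 0.855 in microglia and 1.10 for WT microglia over monocytes without cells carrying 2 markers of another class, and 1.12 in monocytes with classes by marker UMIs. Where the interval already included 1, among others, the ratio of twi microglia over monocytes crossed 1 for Asah1 (0.574) and for Psap (1.17) without cells carrying 2 markers of another class, and for Psap (1.36) in cells with a Y transcript and no Xist. A 2-fold mark in place of 1.5 moved the share of all genes past it, in either direction, from 27.4% to 12.9% over all cells, from 49.4% to 23.5% in microglia, from 27.0% to 10.4% in monocytes, from 42.8% to 24.4% in neutrophils, from 21.3% to 7.40% in B, from 32.3% to 14.8% in CD8 T, from 27.3% to 8.35% in CD4 T and from 25.8% to 7.89% in NK cells, and asking for only 1 UMI on each side gave 53.7% in CD4 T and 45.2% in NK cells. The causes were not tested. Of all values for single members, 806 lay within the counting interval of the reported value, 52 lay outside it, and the 10 given above lay outside it on the other side of 1 from an interval that missed 1.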
